A study of Chromochloris zofingiensis with 14 samples.

Results

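The plastid genome of the green alga Chromochloris zofingiensis carried 73 gene models, out of 15369 in the deposited annotation. They were taken as every gene line on the sequence that the annotation names as the chloroplast genome, 181058 bases long. No measured value entered the choice. Because psaA was entered as 3 pieces, the 73 lines correspond to 71 distinct gene names. The names fit the label: genes for both photosystems, the Rubisco large subunit, plastid RNA polymerase and plastid ribosomal proteins were all among them.

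The study made 14 RNA libraries from liquid cultures of strain SAG 211-14, 1 for each growth condition. Cultures stood at 25 °C in Proteose medium with a day of 16 h light and 8 h dark. A culture without further treatment had medium light of 100 μmol photons m−2 s−1, and others had low light of 40 or high light of 400 μmol photons m−2 s−1, or darkness for 48 h. All of the following were in medium light unless dark is named. Iron, nitrogen, phosphorus or sulfur was left out of the medium for 1 h. Hydrogen peroxide at 1 mM was given for 2 h. Rose bengal at 5 μM, a dye that forms singlet oxygen when lit, was given with 0.5 h dark and 1 h light or with 1 h dark and 3 h light. Glucose at 20 mM was supplied for 72 h, and oxygen was withheld for 4 h in the light or in the dark. The file analysed here is a gene map and holds no expression value or read depth, so no condition is compared and every value below is a property of that map. With 1 map and no replicate, counts, lengths and distances are given as a description and carry no test.

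A plastid descends from a cyanobacterium and keeps a small genome of its own, most of its former genes having moved to the nucleus. What stays is mainly the core of the photosynthetic complexes and the machinery that transcribes and translates it. In green algae many plastid genes still lie in groups read together as in bacteria, and others have been scattered by rearrangement. Gene names follow their complexes: psb for photosystem II, psa for photosystem I, pet for the cytochrome b6f complex, atp for ATP synthase, rpl and rps for the large and small ribosomal subunits, rpo for RNA polymerase and chl for chlorophyll synthesis.

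By these prefixes, 15 gene models belonged to photosystem II, 6 to photosystem I, 5 to cytochrome b6f, 6 to ATP synthase, 1 to Rubisco, 3 to chlorophyll synthesis, 5 to RNA polymerase and 20 to the ribosome. The remaining 12 had other names. Numbers of genes and amounts of coding sequence were distributed differently. Photosystem II held 20.5% of the gene models and 8.08% of the coding bases, whereas RNA polymerase held 6.85% of the models and 22.7% of the bases. The ribosome held 27.4% and 14.8%, and the 12 others held 16.4% and 33.3%. Coding length is the length of the coding segment, and all 73 gene models had 1 such segment that covered the whole gene line. No intron was therefore drawn inside any of them, although the psaA pieces imply splicing. Codon numbers below assume that the last triplet is the stop codon, which holds for both reading frames named by their length, orfC75 and orfC1238.

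**Figure D1:**
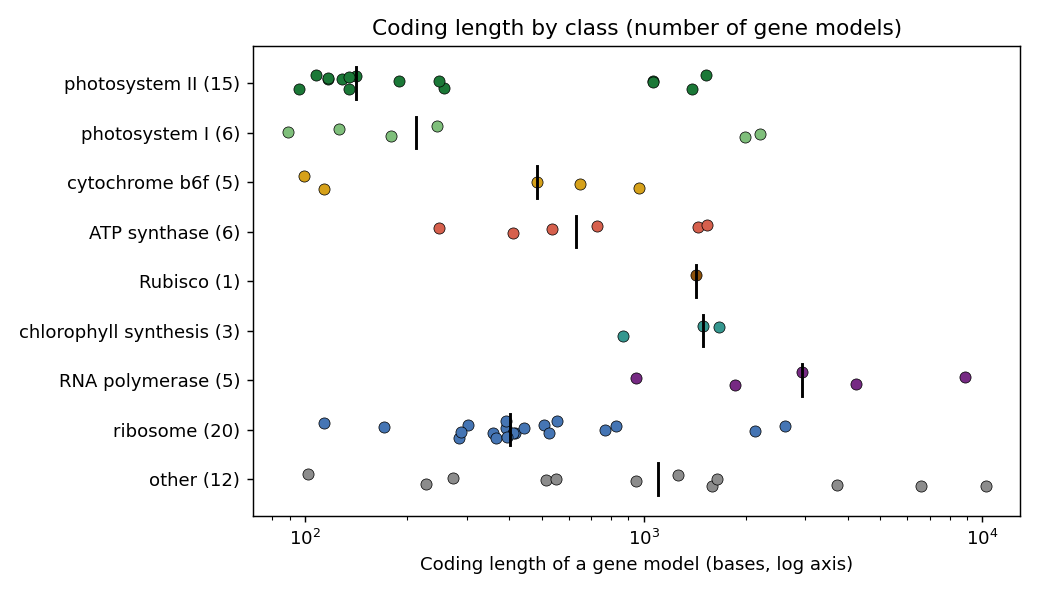
Coding length of each of the 73 plastid gene models (horizontal, bases, log axis) by class, with a vertical bar at each class median; vertical scatter within a class has no meaning. Photosystem II models fall into short ones of 96 to 258 bases and longer ones of 1062 to 1527, and the RNA polymerase models lie between 951 and 8865.

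Photosystem II, the complex that splits water, had models of 2 sizes. The reaction centre proteins D1 and D2 were encoded by psbA (496 to 1557, plus strand) and psbD (54843 to 55904, minus strand), and both had 1062 bases, or 353 codons. The inner antenna proteins CP43 and CP47 were encoded by psbC with 1386 bases (6440 to 7825, plus strand) and psbB with 1527 (80879 to 82405, minus strand). The other 11 psb genes had 96 to 258 bases and encode proteins of 31 to 85 residues. The shortest was psbT, with 96 bases. Both parts of cytochrome b559, psbE with 249 bases and psbF with 135, were among them but lay on opposite strands and 80338 bases apart the shorter way round. Ycf12, which the deposited note describes as photosystem II subunit 30, added a small protein gene of 102 bases whose name does not carry the psb prefix.

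Photosystem I, which passes electrons to ferredoxin, was represented by psaA, psaB, psaC and psaJ. The large core protein gene psaB (160339 to 162546, plus strand) had 735 codons. The iron-sulfur protein gene psaC had 246 bases (58648 to 58893, minus strand), and psaJ, for a small membrane subunit, had 126 (50279 to 50404, minus strand). The assembly factors of photosystem I, ycf3 and ycf4, had 516 and 552 bases and were direct neighbours on the minus strand.

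The other core protein of photosystem I, psaA, was annotated as 3 exons in separate places. In Chlamydomonas reinhardtii, a related green alga, psaA is known to be transcribed as separate precursor RNAs that are joined by trans-splicing. Here exon 1 had 89 bases (132211 to 132299), exon 2 had 180 (53937 to 54116) and exon 3 had 1987 (59825 to 61811), all on the minus strand. Together they gave 2256 bases, or 751 codons, 48 bases more than psaB, and exon 3 made up 88.1% of them. Exons 1 and 3 were the 2 gene lines of the plastid whose length is not a multiple of 3. The reading phase deposited for each exon equalled the phase computed from the lengths of the exons before it, 0 for exon 1 and 1 for exons 2 and 3. Taken in the order 1, 2, 3 the pieces therefore form 1 continuous frame.

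The order on the map was not the order of the protein. Reading along the minus strand, exon 3 came before exon 2, with 5708 bases and the genes psaC, petL and psbD between them. Exon 1 lay 70399 bases from exon 3, which is 38.9% of the plastid sequence, with 33 gene models in between. Next to exon 1, 1067 bases downstream of it in the direction of reading, lay orfC1238 (127427 to 131143), which the deposited note calls similar to an intronic reverse transcriptase. Proteins of that kind are usually encoded within group II introns, the intron type also known from trans-splicing of psaA in Chlamydomonas. Whether orfC1238 lies in a piece of a psaA intron is not stated in the annotation.

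The cytochrome b6f complex, which carries electrons between the photosystems, had petA for cytochrome f (966 bases, 117822 to 118787), petB for cytochrome b6 (648 bases, 108172 to 108819), petD for subunit IV (483 bases, 115721 to 116203), petL (99 bases) and petG (114 bases). Of these, only petG lay on the plus strand. ATP synthase had 6 genes, all on the minus strand. The catalytic head was encoded by atpA with 1533 bases (147345 to 148877) and atpB with 1446 (110148 to 111593), its stalk by atpE with 411, and the membrane part by atpI with 729, atpF with 537 and atpH with 249. The Rubisco large subunit gene rbcL, for the enzyme that fixes carbon dioxide, had 475 codons. The light-independent protochlorophyllide reductase, which lets algae make chlorophyll in the dark, was complete in its 3 subunits: chlB had 1665 bases (64900 to 66564), chlN had 1494 (33603 to 35096) and chlL had 870 (120068 to 120937). The 3 chl genes lay on the minus strand with no other chl gene as a neighbour.

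RNA polymerase genes took up more coding sequence than those of any other named class, 18846 bases. The plastid-encoded enzyme is of the bacterial type, with α, β and split β′ subunits. Its α subunit gene rpoA had 951 bases (112840 to 113790). The β′ genes rpoC1 and rpoC2 had 4233 bases (136603 to 140835) and 8865 bases (19914 to 28778), 13098 together. The β subunit was entered as 2 gene models, rpoBa with 1866 bases (41891 to 43756) and rpoBb with 2931 bases (38233 to 41163). On the minus strand rpoBa is read first. The 2 fragments were 727 bases apart and add up to 4797 bases. Each is a whole number of codons, and the distance between them is 1 more than a multiple of 3, so rpoBb is not in the same frame on the map as rpoBa. All 5 rpo models lay on the minus strand. The deposited note of rpoC2 reads subunit beta, while that of rpoC1 reads beta′.

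The ribosome had 9 large-subunit and 11 small-subunit protein genes. Their strands differed: 6 of 9 rpl genes were on the plus strand, against 1 of 11 rps genes. The rpl genes had 114 bases (rpl36) to 828 bases (rpl2), with a median of 366. The rps genes had 285 bases (rps19) to 2613 bases (rps2), with a median of 444. Both long rps genes stood apart from the other 9, which reached at most 771 bases (rps4): rps2 (84299 to 86911) had 870 codons and rps3 (29910 to 32042) had 710. Translation factors were encoded by tufA, for elongation factor Tu, with 1260 bases (133810 to 135069), and infA, for initiation factor 1, with 273 (83685 to 83957).

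Among the other genes, ftsH (8258 to 18478, minus strand), named after a membrane protease that degrades damaged proteins, had 10221 bases. Of unknown function by its note, ycf1 (95697 to 102302, plus strand) had 6606. The Clp protease subunit gene clpP had 531 codons. The cytochrome c assembly gene ccsA had 948 bases (164897 to 165844) and cemA, noted as a heme-binding protein, had 1650 (171539 to 173188). The hypothetical frame orfC75 had 228 bases (37006 to 37233).

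Coding lengths in the plastid ran from 89 to 10221 bases with a median of 507. The 95% interval of the median from the order of the values was 366 to 828 bases. At the short end, 25 of 73 models had fewer than 300 bases, 11 of them psb genes. At the long end, 9 models reached at least 2000 bases and held 52.4% of all plastid coding bases. The longest 4, ftsH, rpoC2, ycf1 and rpoC1, held 36.1%. After them came orfC1238 with 3717 bases, then rpoBb, rps2, psaB and rps3. The shortest above the limit, rps3, had 2133 bases, and the models just below it were psaA exon 3, rpoBa and chlB with 1987, 1866 and 1665.

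These frames are long against the whole annotation as uninterrupted stretches. Of 75948 coding segments on all sequences, the ftsH frame was the longest and the rpoC2 frame the second longest, and ycf1 ranked 7. By total coding length, in which nuclear genes add up many segments, ftsH ranked 41, rpoC2 66 and ycf1 192 among 15369 genes. Nuclear genes with related names were shorter for ftsH and on either side of clpP. They were matched by name only, so those named CLP need not encode the same kind of protein as clpP. FTSH (Cz02g25060, chromosome 2) had 2409 coding bases in 7 segments and FTSH7 (Cz05g33210, chromosome 5) had 2253 in 6. Against 1596 in clpP, CLP1 (Cz03g18040, chromosome 3), described as a Clp protease, had 1266 in 5. CLPN (Cz06g27180, chromosome 6), noted as chloroplastic, had 2940 in 14, and CLPS1 (Cz03g30050, chromosome 3), without a note, had 219 in 2. In land plants and bacteria clpP, rps2 and rps3 encode proteins much shorter than those given here. Their lengths in Chlamydomonas reinhardtii and other green algae were not compared, so the long frames are not called particular to this plastid. The annotation does not say which parts of these frames are kept in the mature proteins.

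**Figure D2:**
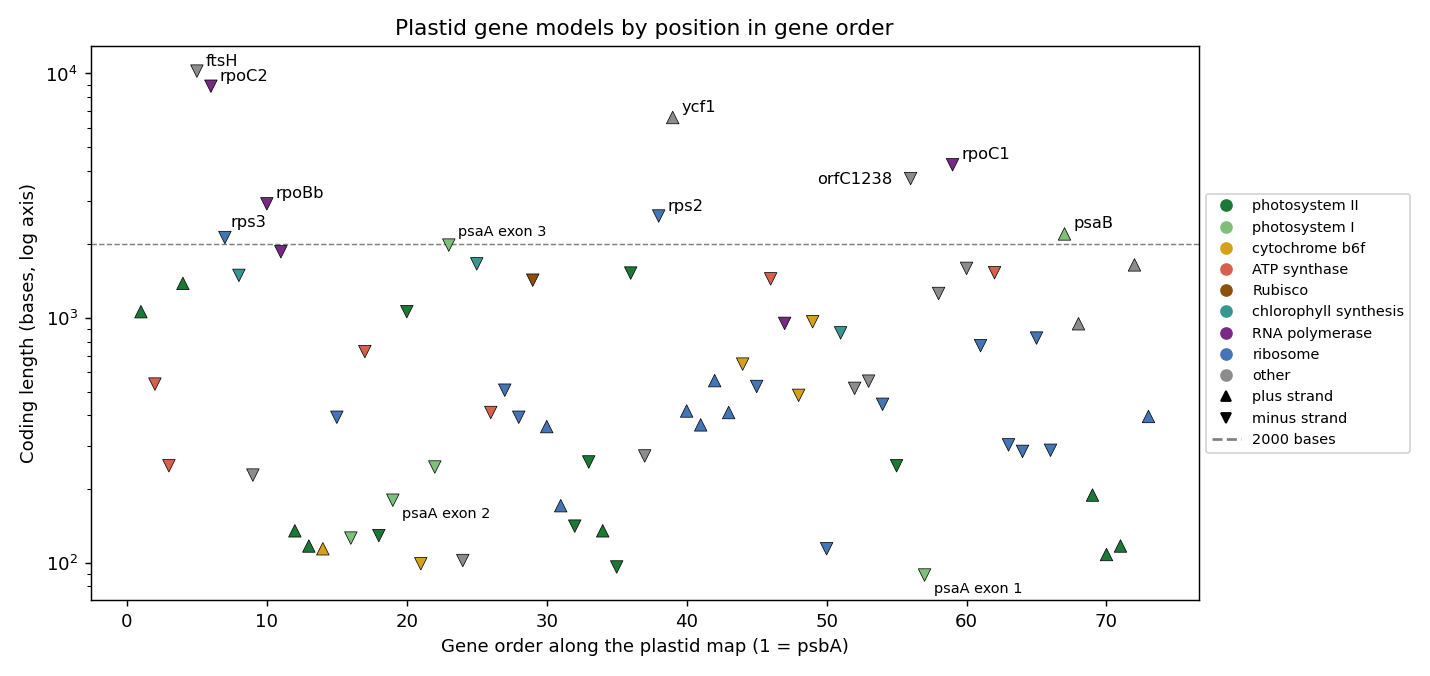
Coding length (vertical, bases, log axis) of the 73 plastid gene models in map order (horizontal, from psbA as 1), coloured by class, with upward triangles for the plus and downward triangles for the minus strand. The 9 models above the dashed line at 2000 bases are named. The psaA exons stand at places 57, 19 and 23 for exons 1, 2 and 3.

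Strands were unevenly used. The minus strand carried 53 genes and 79.0% of the coding bases. Along the map the genes formed 13 runs of neighbours on 1 strand, and the 3 longest runs held 45 genes, 61.6% of all. The longest had 23 genes from petB to rpl23 (108172 to 154831) and mixed 8 of the 9 classes. A run of 15 genes from rps12 to rbcL (48904 to 74406) also mixed 8 classes. A minus run from ftsH to rpoBa and a plus run from psaB to rpl12 had 7 genes each, of 4 classes in both cases. Alone on their strand stood psbA, psbC and psbN, all on the plus strand and all genes of photosystem II. This holds for the linear map, since with the ends joined psbA adds to the plus run that ends in rpl12, leaving 12 runs. Of the 15 psb genes, 8 were on the plus strand, whereas ATP synthase, RNA polymerase, chlorophyll synthesis and rbcL had 0 of 15 there.

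**Figure D3:**
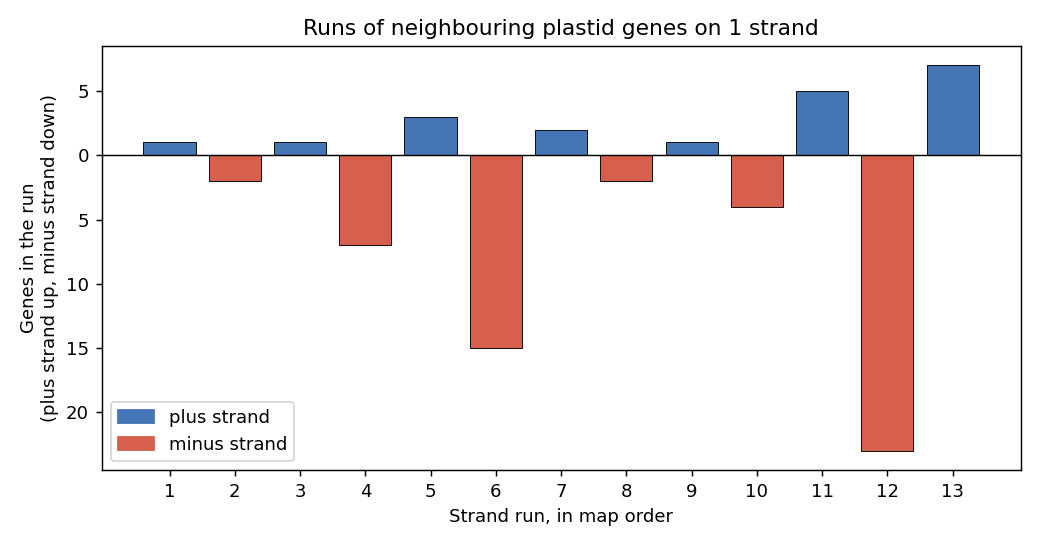
Number of genes (vertical) in each of the 13 strand runs in map order (horizontal), plus strand upwards and minus strand downwards. The minus runs of 15 and 23 genes exceed every plus run, the largest of which has 7.

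Some neighbours belonged to the same class. In 19 of 72 neighbouring pairs both genes had the same named class, 8 pairs in the ribosome and 7 in photosystem II. These were also the largest named classes, with 20 and 15 of the 73 models. The share of same-class pairs among all gene pairs was not computed, so no excess among neighbours is claimed. Of the 19 pairs, 17 shared a strand, as did 60 of all 72 neighbouring pairs (83.3%). The 19 same-class pairs formed 11 blocks with 30 genes. The largest was psbK, psbH, psbN, psbT and psbB (77507 to 82405). Among ribosomal genes, rps14, rps19, rpl2 and rpl23 lay side by side on the minus strand (150420 to 154831), and rpl16, rpl14 and rpl5 on the plus strand (103513 to 106218). The psb genes psbZ, psbM and psbI formed a block of 3 (166869 to 170677).

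Known gene clusters were kept in fragments. From textbook gene orders of Escherichia coli and of land plant plastids, 29 pairs of successive genes in 10 clusters were looked up, skipping cluster members that were not analysed here. Of these pairs, 9 were direct neighbours here with order and relative strand as known, and 20 were not. These 20 had 3 to 33 genes between them, with a median of 14, and 13 of them had the known relative strand. Of all possible pairs of plastid genes, 59.7% share a strand. The lists were written with the gene order of this plastid in view.

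The great ribosomal cluster of bacteria, which joins the S10, spc and α operons, was present here as 2 intact pieces and scattered members, and kept 4 of 10 pairs. The first piece was rpl23, rpl2 and rps19, read in this order on the minus strand with 994 and 1176 bases between coding regions. The second was rpl16, rpl14 and rpl5 on the plus strand with 555 and 813 bases between them. In bacteria rps14 follows rpl5, and here it stood beside rps19 with 20 genes between it and rpl5. The members rps3, rpl36, rps4 and rpoA adjoined neither piece nor each other. The bacterial str cluster kept 0 of 2 pairs, with rps12, rps7 and tufA separated by 11 and 30 genes.

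Of photosynthetic clusters, that of psbB was kept best. In land plants psbB, psbT, psbH, petB and petD are read together, with psbN on the opposite strand between psbT and psbH. The part from psbB to psbH had this arrangement here, psbN included, and its 3 pairs were 1017, 537 and 77 bases apart. The distance of 77 bases between psbH and psbN was the smallest between any neighbouring plastid genes. Of the rest of the cluster, petB lay 29155 bases from psbH, and petB and petD had 3 genes between them. From the psbE, psbF, psbL and psbJ cluster, psbF and psbL remained 508 bases apart. From atpI, atpH, atpF and atpA, atpH and atpF remained 1050 bases apart. No pair was kept of psaA with psaB, psbD with psbC, atpB with atpE, psbK with psbI, or rpoB with rpoC1 and rpoC2. Of these, psbD and psbC overlap in land plants, and here lay on opposite strands with 15 genes between them. For psaA the nearest piece, exon 1, was 28039 bases from psaB.

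**Figure D4:**
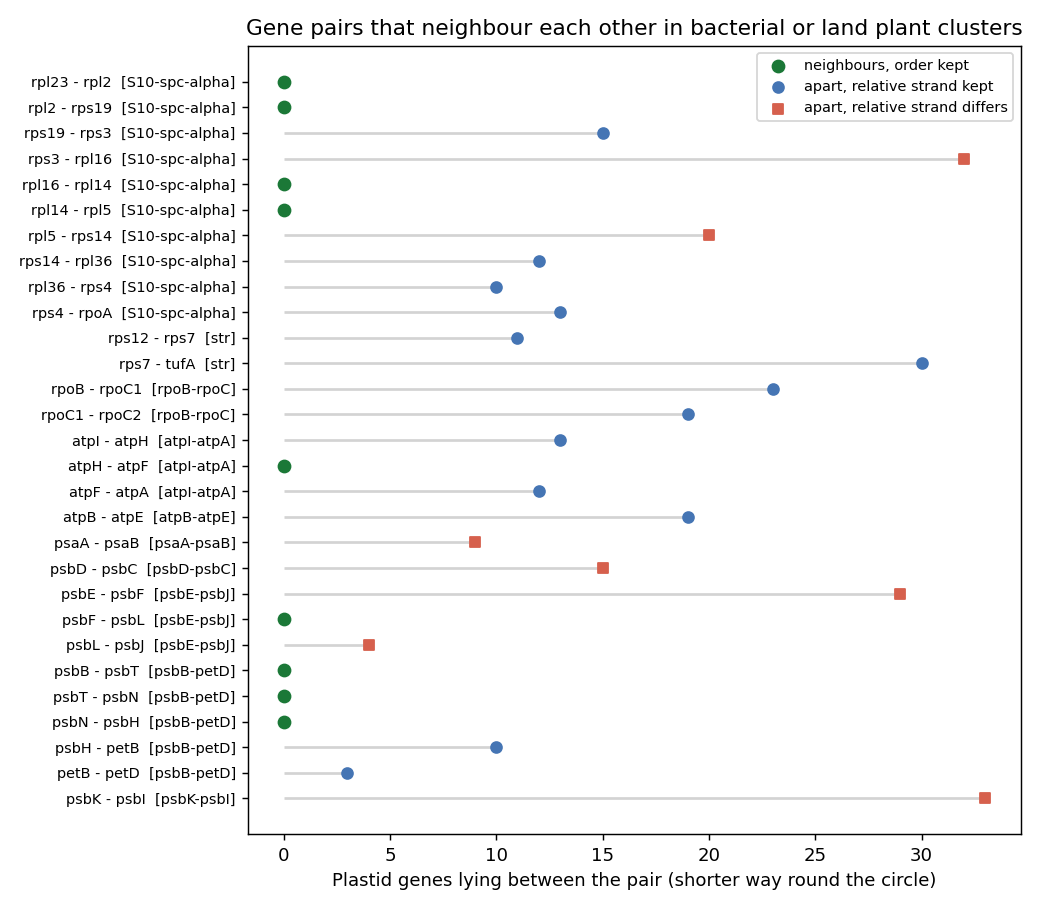
Number of plastid genes between the members of 29 gene pairs (horizontal) that follow each other in known bacterial or land plant clusters (vertical, cluster in brackets), counted the shorter way round. The 9 pairs at 0 are neighbours in the known order, and the other 20 lie at 3 to 33, with squares for the 7 whose relative strand differs from the known one.

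Plastid protein genes of Chlamydomonas reinhardtii were written from textbook knowledge as a list of 65 names, of which 63 were matched by name. The 2 names not matched were rpoB, entered here as rpoBa and rpoBb, and ycf2, a name used in land plants for a large gene with an FtsH-like region. The list gives rpoB as a single name, and whether the gene is undivided in that alga was not checked. Conversely, 8 names of this plastid were not on the list: ftsH, rpoBa, rpoBb, rpl12, rpl32, infA, orfC75 and orfC1238. These counts compare names and not gene content, since rpoB is unmatched while rpoBa and rpoBb are off the list. Whether ftsH here corresponds to the ycf2 of the list was not tested. Matching by alias or note as well gave the same 63.

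Coding regions filled 45.8% of the plastid sequence, and 98051 bases lay outside them. Neighbouring coding regions were a median of 1037 bases apart (95% interval from the order of the values, 874 to 1218, n = 72 pairs), and 0 pairs overlapped. Distances between genes read in the same direction ran from 274 to 2462 bases with a median of 1058.5. The 6 convergent pairs, whose ends face each other, were 411 to 1218 bases apart. The 6 divergent pairs, whose starts face each other, ran from the 77 bases of psbH and psbN to 8785, with a median of 2282. After psbH and psbN, the closest neighbours were atpE and rps7 with 274 bases and petB and rps18 with 293.

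The 2 widest distances were both divergent. Between rps2 and ycf1 lay 8785 bases (86912 to 95696) without a gene model, and between rpl23 and psaB lay 5507 (154832 to 160338). If the sequence is closed to a circle, as plastid genomes usually are, a stretch of 7274 bases without a gene model also runs from rpl12 to psbA across the ends. The 3 together make up 22.0% of all noncoding bases. Genes for ribosomal and transfer RNA, which plastid genomes also carry, are not among the lines of this annotation and were not analysed here. In windows of 20 kb, coding share was highest in the second, with 72.0% and 4 gene starts, where rpoC2 lies, and lowest in the ninth, with 28.1% and 7 gene starts.

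The plastid is set beside the other genomes of the alga as a description, without a test. Its 403 genes per Mb compared with 527 in the mitochondrion and 150 to 276 on the 19 chromosomes. The coding share was 47.2% in the mitochondrion and 19.3 to 41.1% on the chromosomes. The median coding length of 507 bases lay below the 927 to 1122 of the chromosomes. In the plastid 12.3% of gene models had at least 2000 coding bases, against 21.4% on the chromosomes. The median distance between neighbouring coding regions, 1037 bases, lay within the range of the chromosomes, 902 to 1383. Neighbours shared a strand in 83.3% of plastid pairs (95% Clopper-Pearson interval 72.7 to 91.1, 60 of 72), in 21 of 21 mitochondrial pairs and in 45.8 to 56.1% of pairs on the chromosomes. Among all possible plastid gene pairs, neighbours or not, the share was 59.7%, as most plastid genes lie on the minus strand. Genes with 1 coding segment made up 73 of 73 in the plastid, 20 of 22 in the mitochondrion and 14.4 to 20.2% on the chromosomes. Plastid genes carried the label of genetic code 11, the bacterial one, and mitochondrial genes that of code 22.

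**Figure D5:**
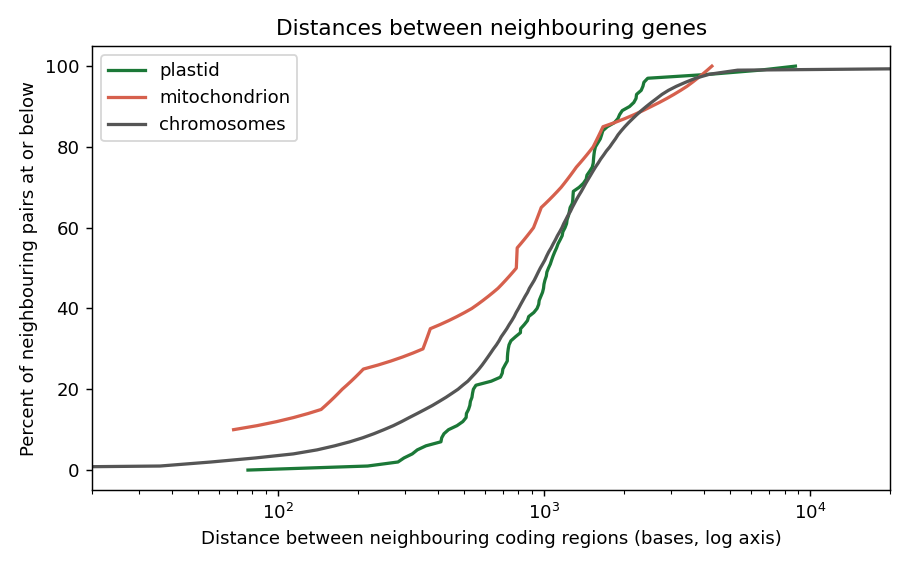
Percent of neighbouring gene pairs (vertical) whose coding regions are at most a given distance apart (horizontal, bases, log axis, from 20 bases) in the plastid, the mitochondrion and the 19 chromosomes together; pairs that overlap are counted but not drawn. The plastid curve crosses 50% at 1037 bases, close to the 966 of the chromosomes, while the mitochondrial curve crosses at 785.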

How the data were processed

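The deposited file for the series is a gene annotation. Its columns hold, per the file headers, other values than expression: the first and last base and the reading phase of gene, transcript and coding lines, counted from 1. All 73 plastid models were made manually, per the file's source column. For the genome build, the sources used here give no name beyond the list of sequences. Tools listed in the submitters' processing notes, STAR 2.4.0j and Cuffdiff 2.2.1, left no value in this file. The number of columns with sample values that went unused was 0, and read depth was not analysed here.

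Coding lengths, distances, strand runs and class counts were computed with Python 3.11.15, pandas 2.3.3 and scipy 1.17.1, and were tested on 20 simulated maps. Shares have exact Clopper-Pearson intervals and medians have binomial order intervals. They describe this map and not biological variation, since genes are not replicates. Named genes are all members of each class, the psaA pieces, models of at least 2000 bases, and the closest and widest neighbours. Nuclear genes with related names and cluster pairs were chosen after their values were seen. Members and lists were chosen with earlier results of these data known. Sequences and some ribosomal genes are not reported here.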

Additional observations from a re-analysis of the deposited data

How the results depend on the processing

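Of 20 alternatives for 8 results, 17 kept the value within its interval, or within 1.5 times for counts. Using gene lines in place of coding segments could not change the coding share, as all 73 models have 1 segment covering the gene line. With the ends joined there were 12 strand runs. With the photosynthetic complexes as 1 class there were 28 same-class pairs against 19, a rise that the limit of 1.5 times still counts as kept. The share of the plastid that is coding was 43.7% without the reading frames named orf, a change that follows from leaving out orfC1238. At least 1500 bases were reached by 16 reading frames and at least 3000 by 5, so the count of long frames depends on the limit set. No paired analysis was possible because each condition had 1 library and no value of any sample was analysed. The map depends on manual models: psaA as 3 and rpoB as 2 models raise the gene number, and with psaA joined the median coding length was 516 bases. Distances between coding regions include untranslated sequence and any RNA gene.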

Other observations

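Gene identifiers rose along the plastid map, mostly in steps of 10. Up to the last identifier there were 144 such numbers, of which 71 were used and 73 skipped, and 2 genes, rpl32 and rpoA, had numbers off the step. Of the skipped numbers, 51 fell between ycf1 and rpl16, which are 1210 bases apart. The other 22 fell in 14 distances between genes with a median of 1694.5 bases, against 952 in the 57 distances without a skipped number. Of these, 5 fell between rps2 and ycf1 and 2 between rpl23 and psaB. What the skipped numbers stood for is not given in the sources used here.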
